A study of Homo sapiens with 9 samples.

Results

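The transcriptome described here is that of MDA-MB231 cells carrying an empty retroviral vector, the control state of a study of RAI2 overexpression. MDA-MB231 is an established human breast cancer line with a spindle-like shape that is widely used as a model of hormone-receptor-negative, invasive disease. The data are the 3 arrays titled as vector, out of 9 arrays in the series, and every gene with a symbol on the array, 20045 in all. The other 6 arrays, from cells given RAI2 or its form RAI2-4A, were not used and no group comparison was made. The vector cells had been infected with retrovirus, placed in 2 µg/ml puromycin and kept in it for 4 days, so the state described is that of drug-selected, transduced cells and not of untouched ones. Biotin-labelled cRNA made from 500 ng of total RNA was hybridised to single-colour Illumina bead arrays. The labels number the arrays 1 to 3 without saying whether they came from separate cultures, so the spread between them may be technical.

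Normal breast ducts are lined by luminal cells, which carry keratins 8, 18 and 19 and include the cells that sense oestrogen and progesterone, and by an outer layer of basal or myoepithelial cells with keratins 5 and 14. Carcinomas keep parts of these programmes, and a carcinoma cell that moves towards a mesenchymal state typically carries less E-cadherin and tight-junction protein and more vimentin, caveolin and the receptor AXL. The genes are described in that order, followed by receptors and their ligands, secreted proteins and metabolism. The lists and their members were chosen with earlier results of these data known. The share of a list above background, set beside that of all genes, therefore describes the chosen genes and is no test of a programme.

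Levels are deposited intensities on a linear scale, and each gene is represented by its brightest probe. A gene was counted as above background when that probe exceeded the background threshold of its array, an intensity of 100.2 to 104, on all 3 arrays. By this measure 10435 of 20045 genes (52.1%) were above background, and for 6250 genes (31.2%) no probe was above it on any array. The remaining 3360 genes passed on some arrays, or by another probe, only. Detection behaved differently in gene groups of known use. Of the ribosomal protein genes, which every growing cell transcribes, 68 of 69 were above background, as were 26 of 27 proteasome subunit genes. Of the olfactory receptor genes, which serve the nasal epithelium, 11 of 384 were above background (2.86%), and none of those 11 exceeded a mean intensity of 136. No gene of the 25 bitter taste receptors, the 17 type I interferons or the 21 UDP-glucuronosyltransferases was above background on all 3 arrays. The exception among ribosomal proteins was RPL10, with 101, 90.2 and 112, so a level near the threshold does not show that a transcript is missing. The array measures the RNA of a whole culture, in which a transcript carried by fewer cells and one carried at less RNA per cell cannot be told apart.

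Replicate 1 stood apart from the other arrays. On it 756 probes read more than 1 log2 unit above both other arrays and 0 read as far below both, whereas replicates 2 and 3 had 0 such probes in either direction. Pearson's r across probes, which are not independent replicates, was 0.994 between replicates 2 and 3 and 0.974 between replicate 1 and each of them. Among genes above background the median SD over the arrays was 0.14 log2 units, and 183 genes (1.75%) had a range over 1 log2 unit. The 10 genes with the widest range, chosen by that rule, were all highest on replicate 1. EEF1G, a subunit of a translation elongation factor, had 8989, 269 and 236 on replicates 1 to 3. PGAM1, a glycolytic mutase, had 3578, 202 and 210.5. CTNNB1, which encodes beta-catenin, had 1038, 150.3 and 148. In each of these replicates 2 and 3 lay close together and replicate 1 stood alone. CACYBP, SSR2, PRMT1, PPP1CA, RPL29, CTSD and CCZ1 were also highest on replicate 1, with replicate 1 between 928 and 2625 and the others between 105 and 247. Without replicate 1, 28 of the 39 gene lists kept their count above background and no list changed by more than 2 genes. That setting keeps replicates 2 and 3, on which these genes read low. It therefore cannot tell which arrays lie nearer the true level, nor check calls that fail on replicates 2 and 3. The array's part in each level was not tested further, and values are given per array for the genes the description turns on and as mean and SD over 3 arrays for others.

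**Figure D1:**
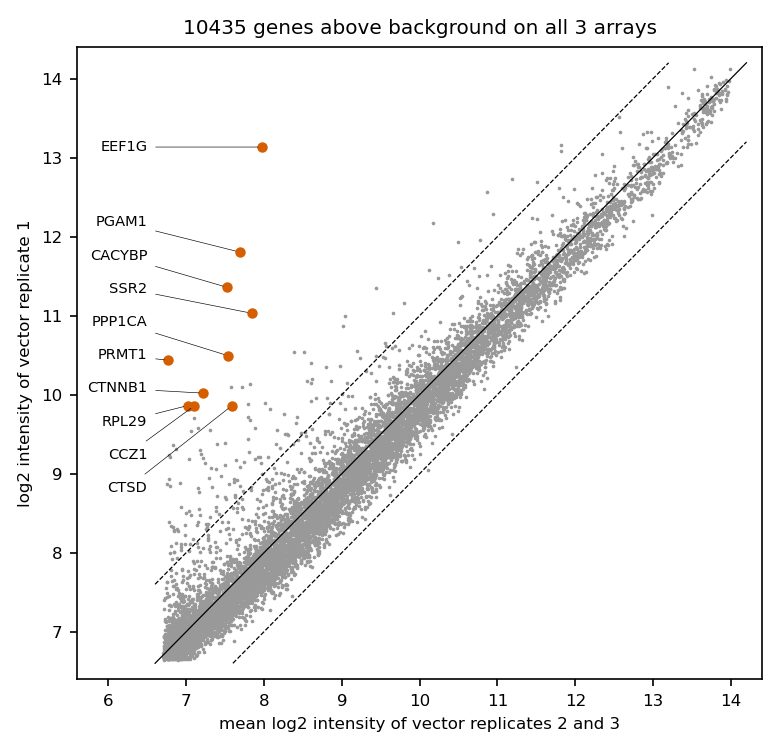
Log2 intensity on vector replicate 1 (vertical axis) against the mean log2 intensity of replicates 2 and 3 (horizontal axis) for the 10435 genes above background. The solid line marks equality and the dashed lines 1 log2 unit either side; the 10 labelled genes have the widest range, and all lie above the upper dashed line.

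The brightest probes belonged to genes of redox balance, glycolysis, the cytoskeleton and the ribosome. TXN, which encodes thioredoxin, a protein that keeps other proteins' thiols reduced, ranked first with 17781, 17170.3 and 15411 on replicates 1 to 3. ANXA2, a calcium-dependent membrane-binding protein, had 16091, 16629 and 15556. LDHA, which makes lactate from pyruvate, had 16135, 15258 and 15992. The arrays lay within 0.21 log2 units of each other for each of these genes. The rest of the 10 brightest were ENO1, a glycolytic enolase, the thrombin receptor gene F2R, the ribosomal protein genes RPL38, RPL6 and RPS29, TPT1, and ATP5F1B, the catalytic beta subunit of mitochondrial ATP synthase. Their means ran from 15328 to 15646. Outside the ribosome the 20 brightest also held the actin genes ACTG1 (14853 ± 409, SD, n = 3) and ACTB (14593 ± 296), the actin regulators PFN1 (14935 ± 1262) and TMSB4X (14844 ± 583), and the myosin light chain gene MYL6 (14726 ± 502). Further genes there served protein turnover and synthesis or mitochondrial transport, namely OAZ1, UBB, EIF4A1, NACA and SLC25A5, at means of 14413 to 15006. PPIAL4A and the pseudogenes RPL13AP5 and ATP5F1EP2 completed the 20, and their probes may read near-identical parent transcripts.

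Of the 100 brightest genes, 34 encoded ribosomal proteins and 10 carried pseudogene or provisional symbols. The first and the hundredth differed by 0.51 log2 units and the first and the tenth by 0.13, against a median SD of 0.07 among these genes, so neighbours in the order were not separable. The order is one of probes, whose brightness also depends on their own sequence, and it is not an order of transcript number. Other probes of the same gene often disagreed. Of 4158 genes above background with several probes, 1557 (37.4%) had another probe that was above background on no array, and for 535 the gap to the next probe exceeded 3 log2 units. CCR6, a chemokine receptor known mainly from lymphocytes, was 1 such gene, chosen after its values were seen. Its brightest probe had 12747, 14367 and 13173, while its other probes had means of 93.0 and 91.6, so its rank rests on 1 probe. F2R had 447 ± 401 (SD, n = 3) on its other probe. Both probes of VIM were bright, the second with 11757 ± 784 (SD, n = 3), as were both of AXL, the second with 6902 ± 778.

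**Figure D2:**
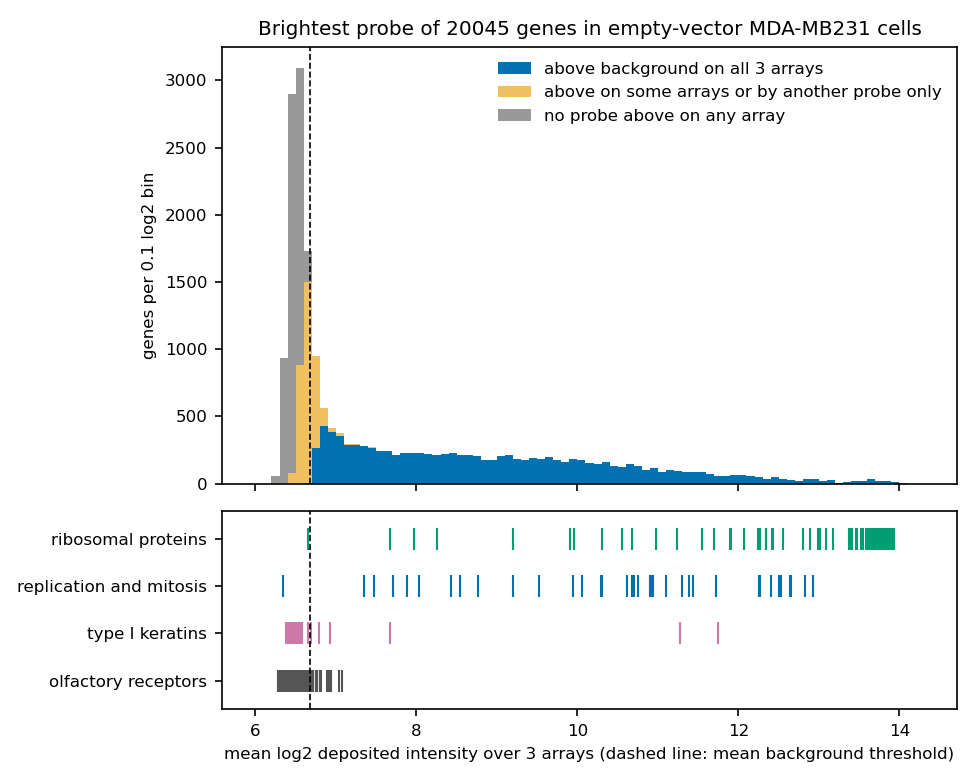
Number of genes (upper panel, vertical axis) by mean log2 deposited intensity of the brightest probe over 3 arrays, coloured by whether the gene was above background, with the members of 4 lists marked beneath. The 384 olfactory receptors crowd at the background peak around the dashed mean threshold, most ribosomal protein genes lie at the upper end, and the type I keratins split into a group at background and a few genes above it.

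The oestrogen and progesterone receptor genes and the pioneer factor of the luminal programme were not above background, but a set of luminal secretory genes was. ESR1, the oestrogen receptor gene, had 85.6, 88.4 and 101 on replicates 1 to 3, and PGR, the progesterone receptor gene, had 83.2, 89.0 and 95.2. FOXA1, which opens chromatin for the oestrogen receptor, had 83.0, 85.7 and 88.3. All of these values lay under the thresholds of their arrays. GATA3, a luminal lineage factor, had 134, 124 and 102 and passed on 2 of 3 arrays. By contrast XBP1, a factor of the secretory stress response, had 1865, 1657 and 1621, and MLPH, an adaptor of vesicle transport, had 1294, 1144 and 1086. The secreted disulfide isomerase gene AGR2 had 541, 605 and 531 and the epithelial ETS factor gene SPDEF had 442, 498 and 436. All 3 arrays were above background for each. MLPH, AGR2 and SPDEF are known from luminal epithelium, whereas the line named in the labels is usually described as hormone-receptor-negative and mesenchymal, and these levels differ from that description. MLPH and SPDEF had 1 probe each, and whether the signals come from these transcripts in these cells was not tested. MUC1, a membrane mucin gene, averaged 524 ± 107 and BCL2, an inhibitor of apoptosis, 324 ± 43.7 (SD, n = 3). In the whole luminal list 15 of 34 measured genes were above background (44.1%, beside 52.1% of all genes), 10 were not above it on any array, and the median gene stood at the 48.2 percentile of all genes. The milk and secretory products PIP, SCGB2A2 and SCGB1D2 were among those not above background, with means of 90.8, 91.7 and 83.2.

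The basal and myoepithelial list was split as well, with adhesion genes and keratins on both sides of the threshold. KRT15 averaged 122 and was above background, while the adhesion genes DSC3 and DSG3 each passed on 1 array. KRT5 had 81.6, 98.3 and 91.0 and its partner KRT14 had 84.0, 81.3 and 85.8, and neither passed on any array. CDH3, which encodes P-cadherin, averaged 84.3 and the lineage factor gene SOX10 averaged 87.1. Above background were LAMB3, a chain of the basement-membrane laminin that epithelia rest on, with 2401, 1856 and 1664, and the subunits of its integrin receptor, ITGA6 with 394, 433 and 499.9 and ITGB4 with 481, 388 and 343. SFN, an epithelial 14-3-3 protein gene, had 911, 1145 and 1132. The contractile genes TAGLN and MYLK averaged 784 ± 111 and 341 ± 75.9 (SD, n = 3), and CNN1, which encodes calponin, averaged 88.1 and was not above background. In all 11 of 21 measured genes of the list were above background, a share of 52.4% beside 52.1% of all genes. With the median of a gene's probes in place of the brightest, 7 genes of the list were.

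Of the keratins analysed here, the intermediate filaments of epithelia, few were above background. Of type I genes 4 of 27 and of type II genes 3 of 21 were above background, both under the 52.1% of all genes. KRT6A, KRT6B, KRT81, KRT82 and KRT86 were not among the type II genes analysed. KRT19 had 4785, 2820.1 and 2983, highest on replicate 1. Its usual type II partner KRT8 had 1498, 1886 and 1555 and KRT7 had 1333, 1565 and 1494, both simple-epithelium keratins. KRT18, the standard partner of KRT8, had 169, 91.6 and 87.3 and passed on replicate 1 alone, with a further probe that averaged 93.3. KRT80, a type II keratin found in many epithelia, had 2296, 1779.9 and 1676, and KRT10, known from differentiating epidermis, had 2469, 2505 and 2442. The hair keratin gene KRT34 averaged 205 ± 17.0 and the basal keratin gene KRT15 122 ± 13.5 (SD, n = 3). Most other hair, epidermal and mucosal keratins analysed lay at background, 16 type I and 17 type II genes having no probe above it on any array. Among the other intermediate filaments VIM, the vimentin gene, had 14793, 12012 and 12415, and the nuclear lamin genes LMNA and LMNB2 averaged 3860.0 ± 478 and 3818 ± 145. NES, the nestin gene of progenitor cells, averaged 260.3 ± 40.9, while DES and GFAP, the filaments of muscle and of astrocytes, averaged 88.4 and 91.4 and were not above background.

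Cell junction genes were above background in part. CDH1, which encodes E-cadherin, the adhesion protein of epithelial contacts, had 102, 109 and 122, just above the thresholds. CTNNA1, the catenin that links cadherins to actin, had 7415, 7629.9 and 7535. EPCAM, an epithelial surface adhesion gene, had 462, 447 and 506. Desmosomal DSG2 averaged 2759.8 ± 380.4, the protease inhibitor gene SPINT2 4266 ± 324 and the tight-junction scaffold gene TJP1 1169.7 ± 283 (SD, n = 3). Of the tight-junction strand genes CLDN1 averaged 336, CLDN7 258, CLDN4 123 and CLDN3 111, all above background. OCLN, the occludin gene, was not, with 84.7, 81.3 and 77.9. Several regulators that hold the epithelial state were not above background on any array, with means of 89.7 for ESRP1 and 84.5 for ESRP2, which direct epithelial splicing, 82.3 for GRHL2, and 91.6 and 85.8 for OVOL1 and OVOL2. Of the whole list 26 of 43 measured genes were above background (60.5%, beside 52.1% of all genes) and 11 were not on any array (25.6%, beside 31.2%).

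Many mesenchymal genes were among the brightest of the array, and others were at background. LGALS1, which encodes a galactoside-binding lectin, had 13145, 13200.5 and 12895. CAV1, the coat protein gene of caveolae, had 10896, 12177 and 13178, and its partner CAVIN1 averaged 9063 ± 492 (SD, n = 3). CD44, the hyaluronan receptor gene, had 6252, 7719.7 and 7958 on its brightest probe, with 127 ± 9.77 (SD, n = 3) on its dimmest. ANXA1, S100A6 and the matricellular gene CCN1 averaged 10744, 11908 and 12439. Of the cadherins of mesenchymal cells CDH11 had 1524, 1955 and 1816 and CDH2, which encodes N-cadherin, had 165, 178 and 193. Among transcription factors that repress CDH1, SNAI2 had 559, 568 and 640.5 and ZEB2 had 178, 178 and 212, all above the thresholds. ZEB1 had 141, 97.2 and 88.9 and passed on replicate 1 alone, while SNAI1 averaged 94.5 and TWIST1 95.8 and neither passed. FN1, the fibronectin gene, is counted among markers of the mesenchymal state, yet its 3 probes averaged 92.4, 90.9 and 90.0 and none was above background. SPARC had 91.9, 96.3 and 98.0, also under the thresholds. The fibroblast surface genes THY1, FAP and PDGFRA averaged 87.4, 88.4 and 95.4, while PDGFRB averaged 156 ± 9.68 (SD, n = 3) and was above background. In all 31 of 48 measured genes were above background, 64.6% beside 52.1% of all genes, and the median gene stood at the 62.4 percentile.

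**Figure D3:**
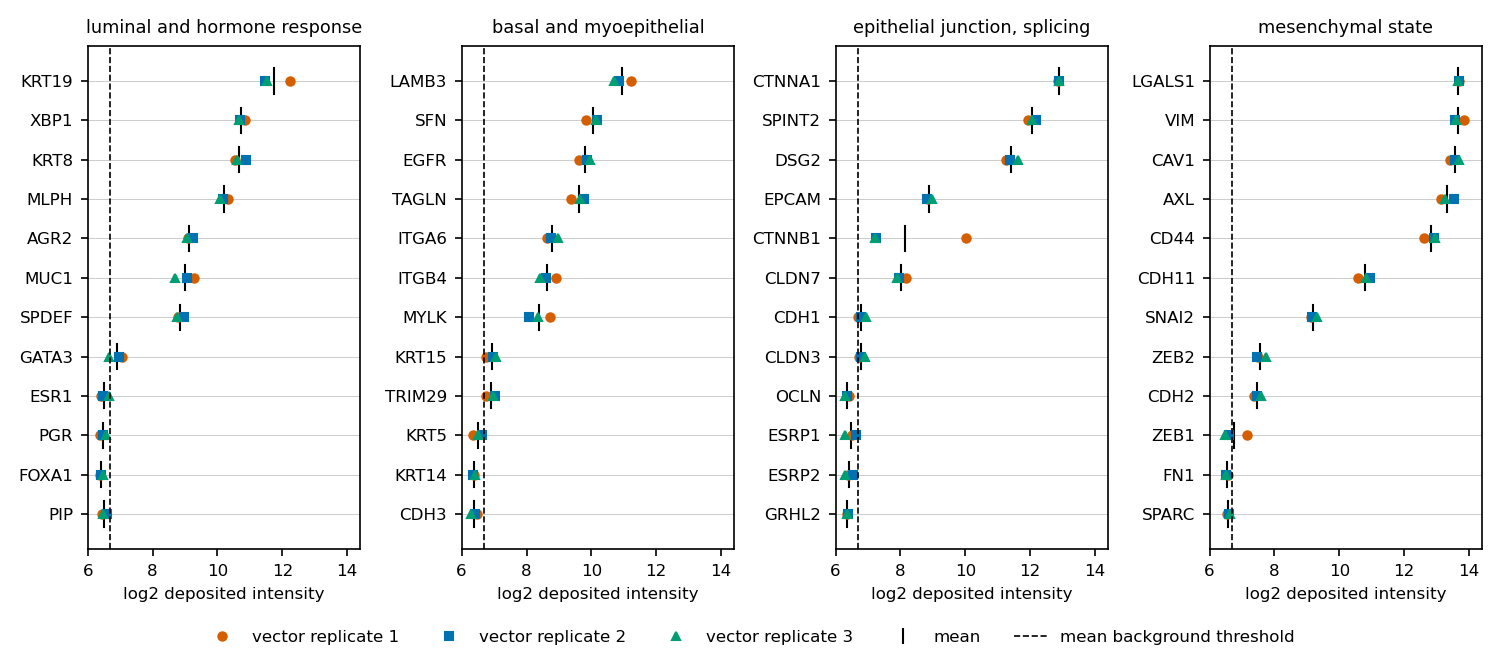
Log2 deposited intensity (horizontal axes) of 12 genes from each of 4 lineage lists on the 3 vector arrays, with the mean as a vertical tick and the mean background threshold dashed. Each panel holds genes far above the threshold and genes at it: ESR1, PGR, KRT5, KRT14, OCLN, GRHL2, FN1 and SPARC sit at background, and CTNNB1 and ZEB1 show replicate 1 apart from the other arrays.

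Markers of other cell types were checked against the label. PTPRC, which all white blood cells carry, had 91.3, 88.4 and 91.0 and none of its 4 probes passed on any array. Of the leukocyte list 6 of 28 genes were above background, led by the lysosomal gene CD68 (1697 ± 81.4, SD, n = 3), which is not confined to macrophages. CDH5 and VWF, known from endothelium, averaged 80.6 and 86.5 and were not above background. The endothelial list had 3 of 16 genes above it. These were the junction gene ESAM with 1201, 1035 and 984, PECAM1 with 141, 108 and 105, and ROBO4 at a mean of 145. CD34 passed on 2 arrays by its brightest probe and on all 3 by another. The counts were 3 of 17 for hepatocyte, 4 of 15 for neuronal, 1 of 17 for striated muscle and 3 of 9 for melanocyte markers, all under the 52.1% of all genes. The brightest in each were ALB (155), TUBB3 (1021), TNNC1 (159.8) and MITF (616). MDA-MB231 is known to lack both copies of CDKN2A, a gene on the short arm of chromosome 9 that encodes cell-cycle inhibitors. Here CDKN2A had 87.4, 82.4 and 86.9, with its other probes at means of 81.7 and 79.9, and none was above background. Its neighbours CDKN2B and DMRTA1 averaged 95.5 and 90.3 and were not above background either. MTAP, the nearest metabolic gene, had 95.7, 90.2 and 109.6 and passed on 1 array. KLHL9 and FOCAD averaged 85.1 and 81.3, whereas HACD4 (547 ± 31.7), TUSC1 (262 ± 43.3) and MLLT3 (151 ± 16.3) were above background (SD, n = 3). Of the 13 genes listed around CDKN2A, 3 were above background and 8 were not on any array. An array level does not show whether a gene is deleted.

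Among receptor tyrosine kinases, which turn growth-factor binding into phosphorylation, 26 of 55 genes were above background (47.3%, beside 52.1% of all genes) and 20 were not on any array (36.4%, beside 31.2%), so the family as a whole lay near the shares of all genes. AXL led the list, with 8997, 11848 and 9733 on replicates 1 to 3. Its relative MERTK had 695, 816 and 823, and TYRO3 had 283, 279.8 and 269.9. The ligands of this family were also above background, GAS6 with 2748, 3798 and 3367 and PROS1, the protein S gene, with 395, 494 and 461. In the EGF receptor family EGFR had 788, 932 and 997 on its brightest probe, with a mean of 126 on a further probe and 89.1 and 88.3 on the others. ERBB2 had 633, 864 and 844, ERBB3 averaged 122 ± 10.3 and ERBB4 averaged 90.7 and was not above background. Ligands that bind EGFR were above background, HBEGF with 2232, 2052 and 2169 and TGFA with 681, 766 and 765, as was NRG1, which binds ERBB3 and ERBB4, with 963, 876 and 866. MET, the receptor of hepatocyte growth factor, had 1743, 1909 and 2268, while its ligand gene HGF had 90.8, 95.9 and 98.2 and did not pass on any array. The ephrin receptor gene EPHA2 had 1173, 1227 and 1464, EPHB4 averaged 571 ± 55.9 and the ephrin gene EFNB2 937 ± 110.2 (SD, n = 3). The co-receptors of WNT signalling RYK and ROR1 averaged 1068 ± 146 and 693 ± 158.

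For several ligands above background the matching receptor was not. KITLG had 135, 138 and 164, while its receptor gene KIT had 89.1, 88.9 and 95.9 and none of its probes passed. The endothelial growth factor genes VEGFB and VEGFC averaged 1865 ± 279 and 1690.3 ± 232 and VEGFA 230.1 ± 24.1 (SD, n = 3). Their receptors FLT1 and FLT4 averaged 80.9 and 94.4 and were not above background, and KDR passed on 1 array. PDGFC, a ligand of the PDGF alpha receptor, had 1855, 2121 and 2009, while PDGFRA had 96.6, 101 and 88.5. Receptors of insulin and its relative lay at the threshold, INSR averaging 97.2 with no array above and IGF1R averaging 99.5 with 1 array above. Of the ligand list 26 of 50 genes were above background, the same share as all genes to within 1 percentage point.

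Nuclear receptors, transcription factors switched by steroids, retinoids and lipids, had 18 of 40 genes above background, 45% beside 52.1% of all genes. PPARG, a lipid-sensing receptor gene, had 1879.7, 2123 and 1939.8 on its brightest probe. Of its 3 other probes 1 averaged 424 ± 67.5 (SD, n = 3) and the others 88.4 and 83.2. Its partner RXRA had 786, 771 and 749, and RXRB had 1026, 1083 and 856. NR2F6, an orphan receptor gene, averaged 779 ± 90.3, and NR3C2, the mineralocorticoid receptor gene, 553 ± 89.8 (SD, n = 3). NR3C1, the glucocorticoid receptor gene, had 207, 289.8 and 309.6 on 1 of 3 probes, the others lying at 95.4 and 93.0. Among retinoic acid receptors RARA had 308, 348 and 329, while RARB and RARG averaged 95 and 92.0 and were not above background. ESR2 had 101, 104 and 108 and VDR 105, 109 and 114, each close to the threshold on every array. THRB and RORA, with means of 82.8 and 96.3, joined ESR1 and PGR among the 15 genes with no probe above background.

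**Figure D4:**
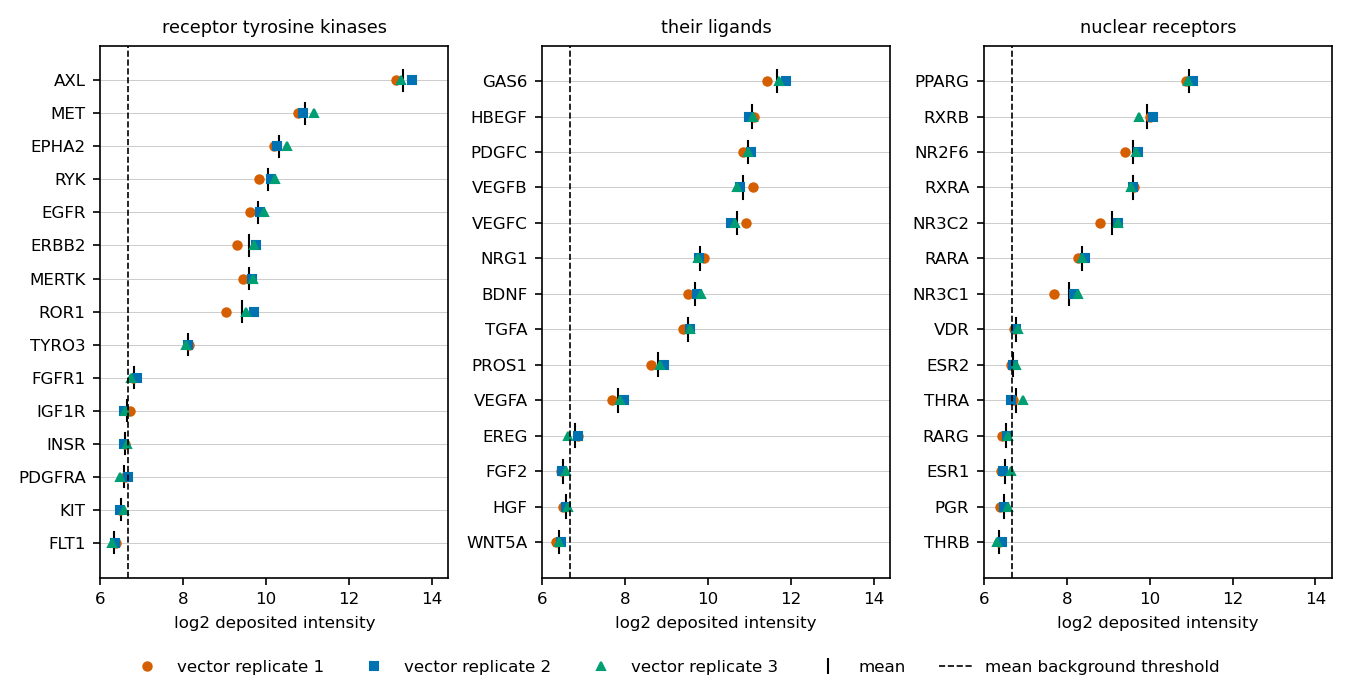
Log2 deposited intensity (horizontal axes) of 15 receptor tyrosine kinase genes, 14 of their ligands and 14 nuclear receptor genes on the 3 vector arrays, with the mean as a vertical tick and the mean background threshold dashed. AXL, GAS6 and PPARG head their panels, and KIT, FLT1, HGF, ESR1, PGR and THRB lie at or under the threshold on all 3 arrays.

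Promoters were set beside these calls, since many promoters are rich in the dinucleotide CpG and others nearly lack it. The 250 bases before each RefSeq start (GRCh38.p14) were read, and a promoter was called CpG-rich when CpG was at least 0.6 times as frequent as its C and G content alone would give. Where a gene has several starts, 1 CpG-rich start was enough. Over all 27305 genes with a RefSeq entry, 50.6% were CpG-rich. That set includes genes not measured on the array, so its share is no baseline for the genes above background. Promoters were found for 81.6% of genes above background, and 87.2% of those were CpG-rich. For genes not above background only 66.4% had an entry, so a comparison of classes over all genes is void, and no share is given for that class as a whole. Among lists with at least 80% matched, all 59 matched ribosomal protein genes had a CpG-rich promoter, while 0 of 66 keratin-associated protein genes, 0 of 20 bitter taste receptor genes and 0 of 14 type I interferon genes did. Within 2 lists, each with at least 80% matched in both classes, the shares of the classes are given as a description of those genes. In the receptor tyrosine kinases 18 of the 22 matched genes above background and 16 of the 19 matched genes not above background were CpG-rich (81.8% and 84.2%). Of the nuclear receptors 13 of the 15 matched genes above background and 8 of the 15 matched genes not above background were (86.7% and 53.3%). No test was made of these shares. The sequences of 5 genes, chosen after their values were seen to show both kinds of promoter on both sides of the threshold, follow 5′ to 3′ on the strand of the gene, with each CpG in capitals. RPS12 (chr6:132814319-132814568, plus strand, mean intensity 15098) has 20 CpG and MET (chr7:116671946-116672195, plus strand) has 24, both above background. KRT8 (chr12:52926470-52926719, minus strand) was above background and has 1 CpG in the window shown. KIT (chr4:54657707-54657956, plus strand) was not above background and has 34, and IFNB1 (chr9:21077943-21078192, minus strand, mean intensity 81.5) was not above background and has 0. Each sequence is that of 1 listed start, and other starts of the same gene can be of the other kind. The windows shown, that of KRT8 included, therefore do not give the class of the gene under the rule above. An entry is a start listed by RefSeq and need not be the start used in these cells.
RPS12: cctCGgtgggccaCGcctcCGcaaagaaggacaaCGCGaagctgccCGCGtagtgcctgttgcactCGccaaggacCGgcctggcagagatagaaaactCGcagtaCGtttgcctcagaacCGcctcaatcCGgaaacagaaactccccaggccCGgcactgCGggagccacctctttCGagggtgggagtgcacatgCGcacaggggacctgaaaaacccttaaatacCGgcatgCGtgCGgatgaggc
MET: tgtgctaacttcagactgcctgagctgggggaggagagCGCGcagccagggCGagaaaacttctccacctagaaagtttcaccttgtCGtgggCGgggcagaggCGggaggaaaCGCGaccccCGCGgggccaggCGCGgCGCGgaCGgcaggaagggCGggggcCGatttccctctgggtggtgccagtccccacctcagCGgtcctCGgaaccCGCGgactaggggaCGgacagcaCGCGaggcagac
KRT8: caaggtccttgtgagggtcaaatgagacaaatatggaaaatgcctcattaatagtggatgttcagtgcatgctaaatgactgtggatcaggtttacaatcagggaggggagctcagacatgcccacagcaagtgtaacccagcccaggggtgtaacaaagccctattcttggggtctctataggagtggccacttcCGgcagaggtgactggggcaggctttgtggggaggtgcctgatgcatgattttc
KIT: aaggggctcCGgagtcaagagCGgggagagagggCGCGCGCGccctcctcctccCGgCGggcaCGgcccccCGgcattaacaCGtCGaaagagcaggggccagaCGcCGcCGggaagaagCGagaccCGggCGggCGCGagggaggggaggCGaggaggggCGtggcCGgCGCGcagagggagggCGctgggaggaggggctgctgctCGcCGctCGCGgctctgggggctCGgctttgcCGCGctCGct
IFNB1: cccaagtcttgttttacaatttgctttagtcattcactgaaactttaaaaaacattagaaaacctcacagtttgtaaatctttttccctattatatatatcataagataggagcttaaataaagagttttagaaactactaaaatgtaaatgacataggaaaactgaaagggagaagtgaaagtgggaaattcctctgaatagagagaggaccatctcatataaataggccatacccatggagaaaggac

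Of cytokine and chemokine genes, the secreted signals between immune and stromal cells, 13 of 47 were above background, 27.7% beside 52.1% of all genes. MIF, a factor stored in many cell types, had 7056, 7958 and 7989 and IL18, an interferon-gamma-inducing cytokine of epithelia, had 6045, 6925 and 6502. CXCL8, a neutrophil attractant, had 567, 769.7 and 894 and IL6 had 379, 411 and 413. IL15 and IL11 averaged 323 ± 40.8 and 212 ± 19.9 (SD, n = 3). The inflammatory genes IL1B, TNF and CCL2 averaged 95.2, 84.8 and 94.8 and were not above background, and IL1A and CXCL1 passed on 2 arrays. On the receptor side 30 of 62 were above background, 48.4% beside 52.1% of all genes. IL6ST, the shared signalling chain of the IL6 family, had 2383, 1106 and 1944, while IL6R, the chain that binds IL6, had 103, 95.3 and 94.0 and passed on 1 array. CXCR1 and CXCR2, which bind CXCL8, each passed on 1 array. CXCR4, a receptor studied in breast cancer spread, had 288, 264 and 342, while its ligand gene CXCL12 averaged 98.1 and was not above background. CSF2RA, the alpha chain of the GM-CSF receptor, had 2359.8, 2367 and 2149. Death and TNF-type receptors were represented by TNFRSF21 with 6412, 6428 and 7023 and TNFRSF12A with 3137, 1521 and 1448, TNFRSF12A being highest on replicate 1, while FAS averaged 90.5 and was not above background. Both chains of the interferon-gamma receptor were above background, IFNGR1 averaging 754 ± 120.0 and IFNGR2 1443 ± 84.3.

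Of the list of secreted proteases and their inhibitors 24 of 52 genes were above background, 46.2% beside 52.1% of all genes. MMP2 and MMP9, the gelatinases, averaged 87.1 and 81.6, MMP3 averaged 85.0 and MMP7 87.2, and none was above background. MMP1, an interstitial collagenase, had 176, 196 and 163, and the membrane-bound MMP14 had 159, 131 and 118. The plasminogen activator gene PLAU had 3615, 2980.0 and 2906, PLAT had 1589, 1654 and 1401, and the receptor gene PLAUR averaged 362 ± 134 (SD, n = 3). The metalloprotease inhibitor gene TIMP1 had 7299.8, 6750.0 and 4872, TIMP2 had 6154, 7384 and 7919, and the cysteine-protease inhibitor CST3 averaged 6177 ± 585. CTSD, a lysosomal protease gene, had 928, 247 and 149, with replicate 1 apart.

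Matrix genes above background numbered 28 of 46, 60.9% beside 52.1% of all genes. CCN1, a matricellular protein bound by integrins, had 11048, 11906 and 14362. Its relative CCN2 had 8134, 9161 and 9829. Laminin chains of basement membranes were above background, with LAMC1 at 2759 ± 149 and LAMA5 at 2469.9 ± 398, as were the short-chain collagen gene COL8A1 at 2859 ± 126 and the thrombospondin gene THBS1 at 2568 ± 183 (SD, n = 3). The fibrillar collagen genes of stroma differed. COL5A1 averaged 802 ± 76.3 and COL1A2 114 ± 6.70, both above background, with COL1A1 averaging 99.9 with 1 array above and COL3A1 112 with 2, and the proteoglycan gene BGN averaged 89.0 with none. Of integrin genes, the receptors of these proteins, 15 of 26 were above background, 57.7% beside 52.1% of all genes. ITGB1, the beta chain shared by most matrix receptors, had 11263, 13456 and 13230.2. The alpha chains ITGA3, ITGA2 and ITGAV averaged 3364 ± 568, 1354 ± 41.4 and 802 ± 136. ITGB2, the beta chain known from leukocytes, averaged 852 ± 24.0, while ITGB3 and the epithelial ITGB6 averaged 90.4 and 86.0 and were not above background.

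The glucose route was above background in its widely used isoforms, while several tissue-specific ones lay at background. SLC2A1, the transporter of most growing cells, had 4747, 5302 and 5265 and SLC2A3 had 832, 914 and 792, while the liver transporter gene SLC2A2 averaged 78.6 and the insulin-dependent SLC2A4 90.5. HK1, a hexokinase that phosphorylates glucose, had 5816, 7104 and 6762. HK2 had 901, 698 and 989, and HK3 passed on 1 array. Of the phosphofructokinases PFKP averaged 4243 ± 183, PFKM 747 ± 48.4 and PFKL 296 ± 21.5 (SD, n = 3). GAPDH had 13825, 10477 and 11996 and PKM, the pyruvate kinase gene of proliferating cells and muscle, had 3965, 4262 and 3349, while the liver and red-cell isoform PKLR passed on 2 arrays at a mean of 102. PGK1 had 6787, 2084 and 2595, highest on replicate 1. LDHB averaged 5321 ± 428, and the testis and muscle isoforms PGK2, GAPDHS and PGAM2 averaged 95.8, 94.7 and 81.0 and were not above background. The muscle enolase gene ENO3 was above it, at 243 ± 28.5. Of the glycolysis list 22 of 30 genes were above background, beside 52.1% of all genes, with the median gene at the 79.7 percentile. The gluconeogenic enzyme gene FBP1 had 1148, 1262 and 1226. It is known from liver and kidney and, like MLPH, AGR2 and SPDEF above, from luminal cells. Why it was above background here was not tested. PCK1, the cytosolic enzyme before it in the route, had 87.2, 90.4 and 95 and was not above background, while the mitochondrial PCK2 averaged 303 ± 28.0 and PC, which makes oxaloacetate from pyruvate, 753 ± 94.6.

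The citric acid cycle was above background nearly throughout, with 24 of 27 genes, beside 52.1% of all genes, and a median at the 85.2 percentile. MDH2, the mitochondrial malate dehydrogenase gene, had 10856, 12093 and 11366, PDHB, a pyruvate dehydrogenase subunit gene, had 5208, 6115 and 6549 and the citrate synthase gene CS had 3271, 3085 and 3174. IDH1 and IDH2, the NADP-dependent isocitrate dehydrogenases, averaged 869 ± 46.7 and 226 ± 30.9 (SD, n = 3). Of the kinases that switch pyruvate dehydrogenase off, PDK3 had 371, 356 and 404 and PDK4 136, 158 and 131, while PDK1 had 95, 91.3 and 99.6 and was not above background. In the pentose phosphate pathway 6 of 8 genes were above background, beside 52.1% of all genes. TALDO1 and TKT, of its non-oxidative branch, averaged 5871 ± 774 and 4625 ± 154, and PGD, of the oxidative branch, had 1573, 729 and 793, highest on replicate 1.

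Lipid synthesis had 30 of 34 genes above background, beside 52.1% of all genes. SCD, which desaturates fatty acids, had 6709.6, 4451 and 6480.3, FASN, the fatty acid synthase gene, had 4724, 3468 and 4021 and ACLY, which makes cytosolic acetyl-CoA from citrate, had 4093, 3508 and 4012. The sterol genes HMGCS1 and SQLE averaged 860.2 ± 101 and 811 ± 125, and the regulator SREBF1 769 ± 44.7 (SD, n = 3). Of genes for uptake, storage and oxidation 21 of 32 were above background, 65.6% beside 52.1% of all genes. The droplet coat genes PLIN3 and PLIN2 averaged 4616 ± 387 and 2219 ± 294 and the fatty acid binding gene FABP5 1566 ± 157. CPT1A, the gate of mitochondrial fatty acid oxidation, had 148, 147 and 145. The adipocyte and muscle genes FABP4, CD36 and LPL averaged 86.7, 89.4 and 93.4 and were not above background.

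Amino acid transporters above background numbered 14 of 25, 56% beside 52.1% of all genes. SLC7A5, which exchanges large neutral amino acids, had 2705, 2415 and 2403, and its partner SLC3A2 had 1313, 1720.2 and 1625. The glutamine carrier SLC38A1 had 2461, 2609 and 3000.4, SLC1A5 had 995, 1060.2 and 859.5, and the cystine carrier SLC7A11 had 143, 143 and 156. In serine and one-carbon metabolism 16 of 20 genes were above background, beside 52.1% of all genes. SHMT2, the mitochondrial serine hydroxymethyltransferase gene, averaged 2796 ± 177 and PSAT1 1040.4 ± 90.5 (SD, n = 3). PHGDH, the first enzyme of serine synthesis, had 162, 164 and 188, and the glycine-cleavage gene GLDC averaged 81.7 and was not above background. Of the glutamine, proline, arginine and urea list 15 of 19 genes were above background, beside 52.1% of all genes. ODC1, the first enzyme of polyamine synthesis, averaged 4884 ± 711, GLUD1 3730.3 ± 393 and the asparagine synthetase gene ASNS 890.0 ± 85.5. The glutamine synthetase gene GLUL averaged 102 and passed on 2 arrays. The urea-cycle genes OTC and ARG1 averaged 95.8 and 91.2 and were not above background, and ASS1 averaged 195 ± 17.2.

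Replication and mitosis genes were above background in 39 of 40 cases, beside 52.1% of all genes, with the median gene at the 92.1 percentile. CCND1, the cyclin that pairs with CDK4 and CDK6, had 7359, 8533 and 7527, and MCM3, a subunit of the replicative helicase, had 7093, 7933 and 8315. TOP2A and AURKA averaged 5827 ± 471 and 4899.9 ± 268, and MKI67 178 ± 10.4 (SD, n = 3). RRM2, the regulated subunit of ribonucleotide reductase, had 744, 131 and 136, with replicate 1 apart. The exception was CCNE2, with 79.5, 85.0 and 79.6. Of 20 genes written down for the RAS pathway and tumour suppressors 12 were analysed here and 9 were above background, beside 52.1% of all genes. MAP2K1 averaged 2223 ± 112, HRAS 1009 ± 102 and STK11 358 ± 16.5. RB1 had 416, 101 and 109 and passed on 2 arrays, and NF1 averaged 95.4 and was not above background.

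Antigen presentation genes were above background in 18 of 27 cases, 66.7% beside 52.1% of all genes. B2M, the shared light chain of class I molecules, had 10216, 7804 and 7655, HLA-E had 2146, 2194 and 2096 and HLA-B had 955, 793 and 663. The peptide transporter genes TAP1 and TAP2 averaged 1686 ± 43.4 and 1344 ± 86.7 (SD, n = 3). HLA-C averaged 105 and passed on 2 arrays. HLA genes vary between people and resemble each other, so a probe can read an allele poorly or a relative as well. CIITA, the master factor of class II genes, averaged 91.2 and was not above background, while HLA-DRA had 244, 229 and 217 and CD74, the class II chaperone, 464, 503 and 339. CD274, which encodes the checkpoint ligand PD-L1, had 117, 105 and 106, just above the thresholds, and CD47, the signal that restrains phagocytes, had 670.4, 957 and 1076.

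RAI2, the gene that the study went on to overexpress, had 88.3, 86.3 and 95.8 in these vector cells, and its probe was above background on 0 of 3 arrays. RAI2 is reported to bind the CtBP corepressors, and both of their genes were above background, CTBP1 with 1349, 1358 and 1471 and CTBP2 with 275, 266 and 289.8. Of enzymes known from CtBP complexes HDAC1, a histone deacetylase, had 3537, 3924 and 4116, HDAC2 had 3265, 3827 and 4723, and the demethylase gene KDM1A had 1381, 1765 and 1698. The methyltransferase genes EHMT2 and EHMT1 averaged 147 ± 9.33 and 112 ± 7.41 (SD, n = 3). RCOR1, the scaffold that joins KDM1A to deacetylases, averaged 87.2 and was not above background. In all 9 of 11 genes of this list were above background, beside 52.1% of all genes.

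**Figure D5:**
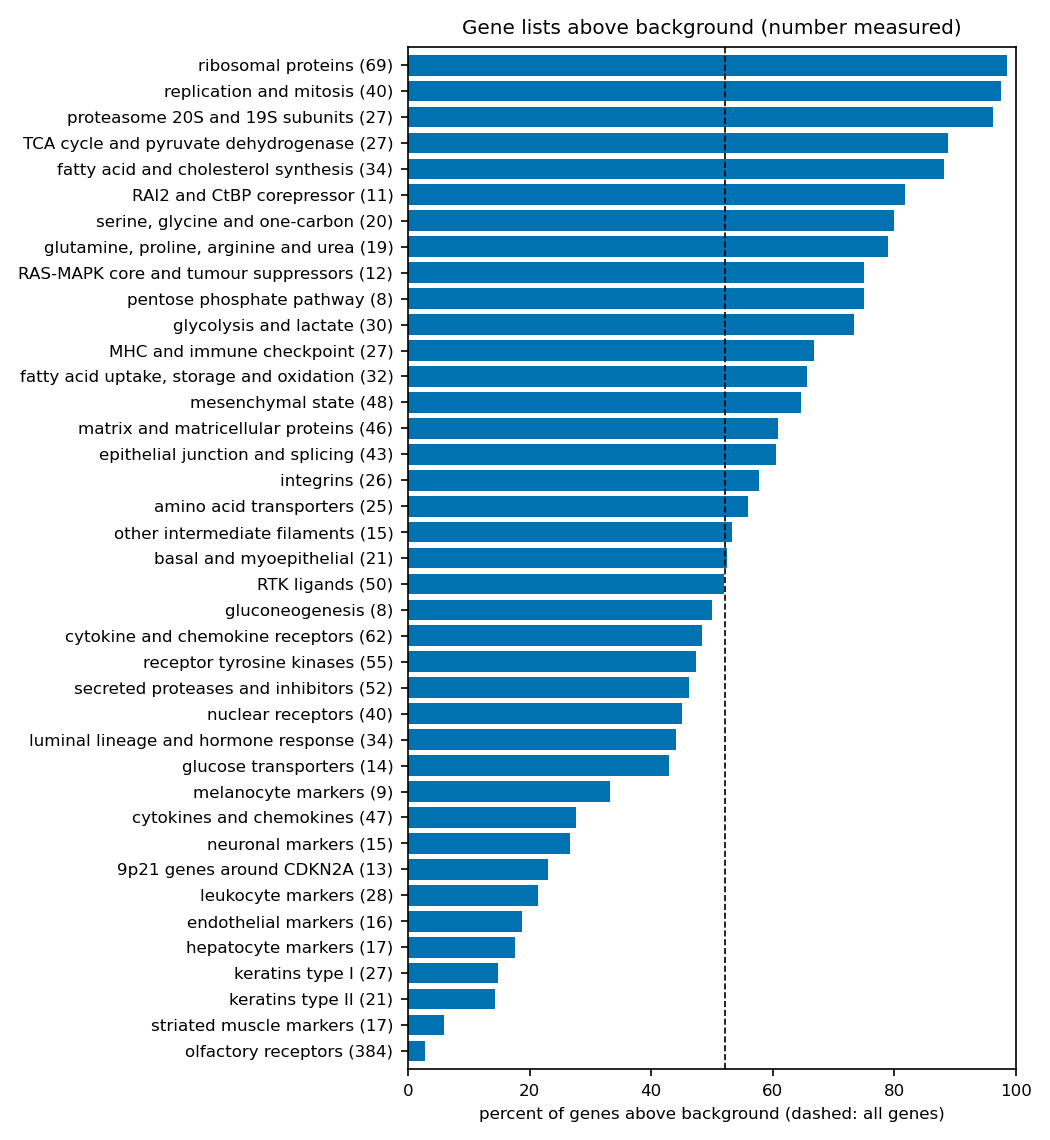
Percent of the measured genes of each of 39 lists that were above background on all 3 vector arrays (bars from 0, number measured in brackets), with the share of all genes dashed at 52.1%. Ribosomal proteins, replication and proteasome genes lie near 100, most lists of central metabolism lie above the dashed line, and keratins, markers of other cell types and olfactory receptors lie below it. The lists were chosen with earlier results of these data known.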

How the data were processed

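RNA of empty-vector MDA-MB231 cells was measured on 3 bead arrays. The deposited table gives linear intensity for 47323 probes. Its array medians already agreed (98.6 to 99.5), and how the authors brought this about is not given in the sources used here. BeadStudio and limma appear, without versions, in the submitters' processing notes. Another 18 columns could not be tied to single samples and were left out. After 2 probes with a missing value were dropped, log2 was taken. The background threshold of an array was the mode of log2 intensity (kernel bandwidth 0.03) plus 1.645 times the SD of the values below the mode, and 43.3% to 47.5% of probes lay above. The platform's probe table names 1 symbol for 30113 probes, several for 8 and none for 17202. Of the first, 30074 were found in RefSeq by Entrez ID and 0 symbols changed. The brightest probe by mean log2 stood for a gene. Genes were named by a rule: RAI2, the 10 brightest genes and the 20 brightest outside ribosomal proteins, members of the gene lists by role, and the 10 with the widest range. The members, lists and families were chosen with earlier results of these data known. No group comparison and no test was made. Precision is limited by the number of arrays, 3. The calling was tested on simulated data, in which each gene had 1 probe and background was drawn separately for each array. The rule of the brightest probe and background shared by the arrays were therefore not covered. Alternatives used limma 3.58.1 in R 4.3.3 for normexp (offset 50) and quantile normalization, and the rest Python 3.11.15, numpy 2.4.6, pandas 2.3.3 and scipy 1.17.1. Promoter sequences come from RefSeq, GRCh38.p14, and their motifs other than CpG are not reported here.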

Additional observations from a re-analysis of the deposited data

How the results depend on the processing

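The calls were repeated under 11 alternatives to the threshold, probe rule, number of arrays, background correction, normalization, filter and arrays used. Of 428 values for the gene counts, the order, the spread, the promoter share and the 39 lists, 418 stayed within 1.5 times the reported value, or, for the promoter share, within its 95% binomial confidence interval. Genes above background ranged from 9613, with the median of a gene's probes, to 11500, with at least 2 of 3 arrays required. The exception by construction was 6277 among the 13354 genes with 1 probe. Genes not above background ranged, over all 20045 genes, from 31.0% after quantile normalization to 38.9% (7803) with the threshold at the 99th percentile. Among the 13354 genes with 1 probe they were 4996, a share of 37.4% against 31.2%. Leaving out 1 array gave 10678 to 10882 genes above background and 6860 to 7184 not above. Of the 100 brightest genes 61 remained with the median of the probes. With the median of the probes 7 basal genes were above background, against 11. The olfactory receptors above background were 7 with the threshold at the 99th percentile, 7 with the 95th percentile of their own probes, 23 when 2 arrays sufficed and 13 to 17 with 1 array left out, the highest without replicate 3. Striated muscle markers were 3 when 2 arrays sufficed and 1 to 2 with 1 array left out, the highest without replicate 2. The cause of these shifts was not tested. The share of genes above background with a CpG-rich promoter was 88.2% with the threshold at the 99th percentile, against 87.2%. The median SD was 0.15 log2 units after normexp and 0.14 after quantile normalization. For the families grouped by symbol 30 of 330 counts moved by over 1.5 times, most of them counts of 4 or fewer. Genes named KCN, for potassium channels and their partners, were 25 above background when 2 arrays sufficed and 10 with the median of the probes, against 16. CDH cadherins were 2 with the threshold at the 99th percentile or at the 95th percentile of the olfactory probes, against 4. With the median of the probes MAGE-A genes were 2, against 4, HOXC and HOXB genes 1 each, against 2 each, and sodium and calcium channel genes 0, against 1. Those channel genes were 2 without replicate 2, when 2 arrays sufficed and after quantile normalization. HOXB genes were also 1 at both stricter thresholds and after normexp. Of 1436 genes in the lists 1121 kept their call under every alternative run, among them 533 of 611 above background and 585 of 596 not above it. No paired analysis was possible because there is 1 group and no contrast. Not run were the slide as a block, since the labels and headers name none, and the setting with 1 probe for the lists and the order, which changes their members. The filter on dim probes keeps every gene above background by construction, so its counts of such genes could not move. It gives no count of genes not above background. A list with nearly all genes above background could not rise by 1.5 times either. Levels near the threshold are limited by signal over background, so a gene not above it may still be transcribed.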

Other observations

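Gene families grouped by symbol, a grouping added after the values had been seen, gave a wider view of what the vector cells transcribed. The annexins, membrane-binding proteins, had 9 of 12 genes above background (75%, beside 52.1% of all genes), with ANXA5 at 8165 ± 772 and ANXA2 at 16092 ± 536 (SD, n = 3). The S100 proteins, small calcium sensors, had 11 of 19 (57.9%), near the share of all genes. S100A10, the partner of ANXA2, had 13717, 14303 and 13776, while S100A7, S100A8 and S100A9, known from inflamed epidermis, averaged 92.9, 96.2 and 96.4 and were not above background. Of the cadherin genes named CDH 4 of 21 (19%) were above background, namely CDH11, CDH2, CDH20 (116) and CDH1. Claudins had 9 of 23 (39.1%), led by CLDN12 with 1106, 1349.8 and 1401 and CLDN23 with 628, 859 and 819. Of the homeobox genes that record body position, above background were 3 of 9 in HOXD (33.3%), 2 of 9 in HOXC (22.2%) and 2 of 10 in HOXB (20%). In HOXA 1 gene was analysed here, HOXA2, which passed on 2 of 3 arrays with 92.8, 114 and 109. HOXD1 had 256, 366 and 382, HOXD4 159, 178 and 202 and HOXC6 193, 204 and 208, all above background on every array. Among MAGE-A genes, which are silent outside germ cells in healthy adults, 4 of 10 were above background (40%), with MAGEA6 at 197, 245 and 321 and MAGEA3 at 122, 125 and 147.

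Frizzled genes, the receptors of WNT proteins, were above background in 8 of 10 cases, with FZD2 at 1148, 1303 and 1276. Of the WNT ligand genes 5 of 19 were, led by WNT5B at 279, 398 and 354. Of the genes of electrical excitability 1 of 19 sodium and calcium channel alpha subunits was above background, beside 52.1% of all genes. That gene was SCN9A (128, 114 and 161). Genes named KCN, which are potassium channels and their auxiliary or interacting proteins, had 16 of 88 above it (18.2%). KCNH6, a voltage-gated potassium channel gene, had 5701, 7954 and 6642 on its brightest probe, at rank 277 of all genes, while its other probes averaged 92.9 and 87.3 and were above background on no array. The other KCN genes above background had means of 107 to 297, the highest being KCNIP3, which encodes a channel-interacting protein. Cytochrome P450 genes had 14 of 53 above background, beside 52.1% of all genes, led by CYP1B1, an oestradiol hydroxylase, with 1073, 1371 and 1049. In mitochondrial respiration, by contrast, the counts were high beside the 52.1% of all genes. There 33 of 35 NADH dehydrogenase and 17 of 17 ATP synthase subunit genes were above background. For cytochrome c oxidase the count was 12 of 17. Those not above background were COX4I2, COX6A2, COX6B2, COX7A1 and COX8C, isoforms known from muscle, lung or testis. Another isoform, COX7B2, was above background with 452, 503 and 526. All 15 cytosolic aminoacyl-tRNA synthetase and all 8 CCT chaperonin genes were above background, at medians of 2457 and 2964. Zinc finger genes named ZNF, mostly repressors of transposons and other genes, had 298 of 443 (67.3%), beside 52.1% of all genes. Genes named SLC, mostly solute carriers, had 178 of 369 (48.2%). TPM1, a tropomyosin gene, had 1488, 340.0 and 394, again with replicate 1 apart.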
